A study of Mus musculus with 12 samples.

Results

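The 9 genes described here, Cish, Socs1, Socs2, Socs3, Pim1, Pim2, Pim3, Osm and Lif, are SOCS family, PIM kinase and cytokine genes that interleukin-3 (IL-3) and the transcription factor STAT5 are known to induce. They form a list of names with no threshold on a measured value, drawn up with earlier results of these data known, so that their shares beside those of all genes are descriptions. All 9 are among the 41255 genes of the mRNA table. The ribosome footprint (RPF) table holds 10080 genes and 8 of the 9, Pim3 being the exception. Ba/F3 cells are lymphoid, come from mouse and depend on IL-3 for growth. All 6 clones carried human RPL10 from a retroviral vector and an shRNA against the endogenous Rpl10, and each clone grew out of a single cell. Clones 11, 13 and 35 expressed RPL10 R98S and clones 28, 29 and 36 expressed RPL10 WT. Cells of both genotypes received 100 μg/ml cycloheximide for 5 min, and 1 footprint library and 1 mRNA library were made from each clone, which makes 12 libraries. The sources used here do not give the IL-3 concentration in these cultures.

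When IL-3 binds its receptor, JAK2 phosphorylates STAT5, which enters the nucleus and switches on a set of fast-responding genes. Part of that set closes a loop: CIS (from Cish) and the SOCS proteins bind the activated receptor or the JAK kinases and dampen the signal. PIM kinases are active as soon as they are made, so their activity follows their amount, and they support survival and protein synthesis in haematopoietic cells. Oncostatin M (from Osm) and leukaemia inhibitory factor (from Lif) are secreted cytokines of the IL-6 family, and Osm is an early gene of IL-3 and STAT5 signalling. Several of these mRNAs are short-lived, and their level in a cell tends to follow the signal of the moment.

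STAT5 binds the palindrome TTCNNNGAA, which reads the same on both strands. Promoters of 300 bases, 250 before and 50 after the RefSeq transcription start on GRCm38.p6, were at hand for 7 of the 9 genes, in 8 windows, with no entry for Osm and Socs2. The motif was found in the windows of Cish and Socs3 and not in those of Lif, Pim1, Pim2, Pim3 and Socs1. It occurred in 8.30% of all 32851 promoters of the same length. Cish held 2 copies, which 0.457% of promoters do. The 30 bases around these matches are shown because Cish and Socs3 carry the clearest differences between genotypes among the feedback inhibitors, with the motif in capitals. In Cish, at chr9:107296654-107296683 on the plus strand, the copies begin at bases 1 and 12 counted from the annotated start. In Socs3, at chr11:117969501-117969530 on the minus strand, the copy begins at base -154.
Cish promoter: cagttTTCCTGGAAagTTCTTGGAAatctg
Socs3 promoter: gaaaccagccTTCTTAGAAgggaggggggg

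AU-rich sequences in 3′ UTRs are known to mark cytokine and early-response mRNAs for rapid decay. The nonamer TTATTTATT, searched on the transcript strand only and with overlaps allowed, was present in the 3′ UTR of Cish (2 copies), Pim1 (3 copies) and Lif (2 copies), against 7.38% of the 10247 mRNA-tested genes with an annotated 3′ UTR. Copies that overlap within a longer run were each counted. It was not found in the 3′ UTRs of Socs1, Socs2, Socs3, Pim3 and Osm, and the reference transcript of Pim2 has no annotated 3′ UTR. The shorter pentamer ATTTA was densest in Osm, with 5.90 per kilobase, and in Pim3, with 5.19 per kilobase, and these densities exceeded those of 95.6% and 94.0% of genes. Socs1 held none in 1993 bases. The sites of Cish (chr9:107301379-107301408), Pim1 (chr17:29495693-29495722) and Lif (chr11:4272039-4272068), all on the plus strand of GRCm38, are shown with the nonamer in capitals. The stretch of Lif holds 1 of its 2 copies.
Cish 3′ UTR site: tacagtatTTATTTATTTATTctccttgca
Pim1 3′ UTR site: atgtatTTATTTATTTATTTATTtggttgc
Lif 3′ UTR site: aaaggggcctTTATTTATTatttaaaactt

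Values are normalized counts, that is, reads of a gene divided by the size factor of the library. The mRNA libraries held 20576796 to 22178094 counted reads in R98S clones and 6617457 to 23136595 in WT clones. The RPF libraries held 3477723 to 10883086 and 4611390 to 7162305. Lowest among them were the mRNA library of WT clone 28, in which 1 read is worth 2.69 normalized counts, and the RPF library of R98S clone 35, in which 1 read is worth 1.68. Rpl10 mRNA, for which reads of the mouse gene and of the human transgene were not told apart, had a mean of 2236 (SD 735, n = 3) in the R98S genotype and 3025 (SD 1279) in the WT genotype, and the genotypes overlapped. Of 12 pro-B cell markers, Ptprc, Cd79a and Cd79b had a mean of at least 10, while Pax5, Rag1 and Il7r were at 0 in all mRNA libraries. Of 9 mast cell and basophil markers, 6 had a mean of at least 10, with Kit and Tpsb2 at 0, and their summed level was 17671 to 29452 in R98S and 22621 to 27982 in WT clones. The largest parts of this sum are Gata2 and Cma1. Cma1 exceeded Gata2 in R98S clone 35 (12235 against 11145) and came near it in R98S clone 11 (13501 against 15087). In the other clones Gata2 was far larger. Gata2 was lower in R98S mRNA (-0.73, limma adjusted p = 0.0805). The log2 difference was above 0 in the other 5 tested, and the median of the 6 was 1.21. Cpa3, a mast cell protease gene, was higher in R98S in mRNA (3.28, limma adjusted p = 0.0506) and RPF (2.41, limma adjusted p = 0.0154), and Cma1 had an mRNA difference of 2.17 (limma adjusted p = 0.176). Summed T cell markers, with Lck and Cd3d leading, were 136 to 146 in R98S and 50.9 to 69.8 in WT clones, and summed myeloid markers, with Cd14 and Lyz2 leading, were 1.59 to 27.5 and 34.6 to 473. The highest of these sums came from 1 library, WT clone 28, with 429.7 for Cd14 against 3.30 in WT clone 29 and 0 in WT clone 36. The part of these marker differences in the results below was not tested.

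All 9 genes had a lower mean log2 mRNA level in R98S than in WT clones, a direction shared by 48.6% of the tested genes, and 3 of the 9 passed the test. All 8 genes with footprints were also lower in RPF, against 48.8% of the tested genes. Socs3 and Pim1 were lower in both mRNA and RPF, Pim3 was lower in mRNA, and Cish was lower in RPF. Tests were made with limma on log2(value + 1) over all genes with a mean of at least 10, with a Benjamini-Hochberg adjusted p-value under 0.1 as the threshold. This called 6.94% of 11344 genes for mRNA, and 3.91% as lower in R98S. Pim3 reached the mean of 10 only through its WT clones. For RPF, 3 of 8 genes were called lower, against 7.76% of 9580 genes called in all and 4.62% called lower. The median log2 difference was -0.97 over the 9 genes for mRNA and -1.01 over the 8 genes for RPF, and 0.01 over all tested genes in each assay. With 3 clones a genotype the exact two-sided permutation test of a single gene cannot give a p-value below 0.1, and clones of a genotype differ by clonal origin as well as by culture.

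**Figure D1:**
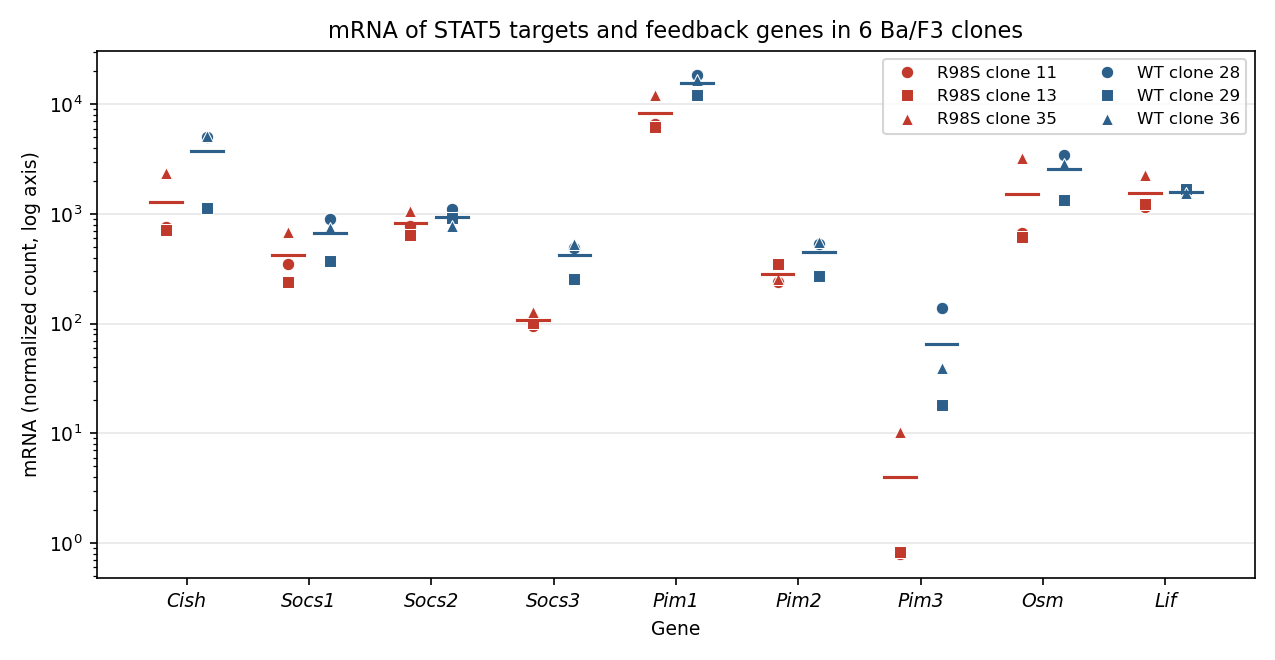
Normalized mRNA counts (log axis) of the 9 genes in each R98S clone (red) and WT clone (blue), with bars at the mean of the 3 clones of a genotype. Only Socs3, Pim1 and Pim3 have their 3 R98S clones below their 3 WT clones, while R98S clone 35 lies above WT clone 29 in Cish, Socs1, Socs2, Osm and Lif.

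Among the feedback inhibitors, Socs3 showed the clearest difference. SOCS3 binds the shared receptor chain gp130 and related receptors and inhibits JAK kinases. Socs3 (ENSMUSG00000053113.3; chr11:117966079-117970047, minus strand, mm10) had mRNA levels of 94.5, 101 and 128 in R98S clones 11, 13 and 35, and of 494, 253 and 531 in WT clones 28, 29 and 36. Every R98S clone lay below every WT clone, and the highest R98S clone was at 0.506 times the lowest WT clone. The mean was 3.96 times higher in WT clones, and the log2 difference was -1.91 ± 0.31 (SE, limma adjusted p = 0.0104, exact permutation p = 0.1). In footprints Socs3 stood at 21.8, 21.0 and 11.8 in R98S and at 90.8, 46.9 and 124 in WT clones. The genotypes again did not overlap, with a log2 difference of -2.14 ± 0.41 (SE, limma adjusted p = 0.0190), although the lowest R98S value rested on 7 reads. Socs3 was the only one of the 9 genes called in all 15 settings of both assays, with adjusted p-values from 1.94e-07 to 0.0551 for mRNA and from 4.46e-05 to 0.0831 for RPF.

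Cish encodes CIS, a classical STAT5 target that competes for STAT5 docking sites on cytokine receptors. Cish (ENSMUSG00000032578.7; chr9:107296026-107302784, plus strand) had 768, 717 and 2374 normalized mRNA counts in R98S clones 11, 13 and 35, and 5024, 1127 and 5178 in WT clones 28, 29 and 36. Both R98S clones 11 and 13 were the lowest of the 6, while R98S clone 35 was 2.11 times WT clone 29, so the genotypes overlapped. The mRNA difference of -1.49 ± 0.61 (SE) on the log2 scale did not pass the test (limma adjusted p = 0.233, exact permutation p = 0.2). Footprints followed the same order of clones, with 158, 142 and 381 in R98S and 794, 284 and 1251 in WT clones. They passed the test with a log2 difference of -1.68 ± 0.50 (SE, limma adjusted p = 0.0913) in spite of the overlap between genotypes. Without WT clone 29, the lowest of the WT clones, the mRNA difference passed too (-2.22, limma adjusted p = 0.037). With any other single clone left out it did not pass (limma adjusted p = 0.121 to 0.572). The RPF call was lost without clone 11, 13, 28 or 36 (limma adjusted p = 0.215 to 0.309). It was also lost with chromosome medians removed (limma adjusted p = 0.119) and with DESeq2 (adjusted p = 0.107). On the opposite strand, the pseudogene Gm17040 overlaps Cish but had mean mRNA levels of only 6.13 in R98S and 7.63 in WT clones.

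Socs1 and Socs2, inhibitors of JAK kinases and of growth hormone signalling, respectively, did not pass the test in either assay. Socs1 (ENSMUSG00000038037.5; chr16:10782240-10785536, minus strand) had mRNA levels of 349, 241 and 679 in R98S and 905, 373 and 748 in WT clones. R98S clones 11 and 13 were again the lowest and R98S clone 35 lay above WT clone 29, with a log2 difference of -0.71 ± 0.42 (SE, limma adjusted p = 0.418). In footprints, R98S clone 35 was the highest of all 6 clones at 299, against 61.2 and 60.3 in R98S clones 11 and 13 and 160, 86.4 and 266 in WT clones 28, 29 and 36. Leaving out R98S clone 35 brought the RPF difference from -0.57 to -1.33 and past the threshold (limma adjusted p from 0.62 to 0.0805). With any other single clone left out it did not pass (limma adjusted p = 0.409 to 0.931). Socs2 (ENSMUSG00000020027.18; chr10:95385362-95417180, minus strand) had 780, 645 and 1061 mRNA counts in R98S and 1101, 918 and 777 in WT clones. The ranges of the genotypes overlapped, and the log2 difference was -0.19 ± 0.23 (SE, limma adjusted p = 0.731).

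The PIM kinases, whose activity follows their amount, were lower in R98S clones for Pim1 and Pim3. Pim1 (ENSMUSG00000024014.8; chr17:29490753-29496112, plus strand) had 6634, 6262 and 12121 mRNA counts in R98S clones 11, 13 and 35, and 18650, 12251 and 16549.7 in WT clones 28, 29 and 36. The genotypes did not overlap, but R98S clone 35 was at 0.989 times WT clone 29. The mean was 1.90 times higher in WT clones and the log2 difference was -0.97 ± 0.27 (SE, limma adjusted p = 0.0919, exact permutation p = 0.1). Footprints of Pim1 numbered 1785, 2001 and 3162 in R98S and 6154, 3756 and 5445 in WT clones. Here too every R98S clone lay below every WT clone, with a log2 difference of -1.16 ± 0.26 (SE, limma adjusted p = 0.0336). The mRNA call was lost without clone 11, 13, 28 or 36 (limma adjusted p = 0.137 to 0.323), without the filter on low values (0.108), with chromosome medians removed (0.106) and with edgeR (adjusted p = 0.11). The RPF call was lost without clone 11 (limma adjusted p = 0.139), 13 (0.157) or 36 (0.107).

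Pim2 (ENSMUSG00000031155.16; chrX:7878262-7883432, plus strand) had 237, 351 and 258 mRNA counts in R98S and 534, 273 and 556 in WT clones. WT clone 29 fell within the R98S range, and the log2 difference of -0.64 ± 0.31 (SE) did not pass the test (limma adjusted p = 0.314). Footprints of Pim2 were 81.4, 132 and 78.9 in R98S and 191, 119 and 224 in WT clones, with the same overlap and a log2 difference of -0.86 ± 0.30 (SE, limma adjusted p = 0.138). Without WT clone 29, the lowest of the WT clones, both differences passed the test, at -0.97 for mRNA (limma adjusted p = 0.0877) and -1.12 for RPF (limma adjusted p = 0.0683). With any other single clone left out neither passed (limma adjusted p = 0.392 to 0.651 in mRNA and 0.161 to 0.344 in RPF). Pim3 (ENSMUSG00000035828.11; chr15:88862186-88865726, plus strand) was the least abundant of the 9, with 1, 1 and 12 reads in R98S clones 11, 13 and 35 and 52, 22 and 50 reads in WT clones 28, 29 and 36. In normalized counts these are 0.794, 0.819 and 10.3 against 140, 18.1 and 39.2. No R98S clone reached the lowest WT clone, and the gene passed the test (limma adjusted p = 0.0504). Its mean was 3.98 in R98S and 65.7 in WT clones, so it met the minimum mean of 10 only through the WT clones. The fitted log2 difference of -3.84 ± 0.91 (SE) depends on the added 1, since it was -2.33 with a pseudocount of 8, and the call was lost without clone 11 (limma adjusted p = 0.161), 13 (0.185) or 36 (0.143).

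The cytokine genes Osm and Lif are neighbours on chromosome 11, with 16530 bases between the end of one and the start of the other. Osm (ENSMUSG00000058755.3; chr11:4236420-4241026, plus strand) had 676, 615 and 3251 mRNA counts in R98S clones 11, 13 and 35, and 3443, 1353 and 2870.5 in WT clones 28, 29 and 36. R98S clone 35 was 5.04 times the mean of the other R98S clones and lay within the WT range. The log2 difference of -1.10 ± 0.59 (SE) did not pass the test (limma adjusted p = 0.372). Footprints of Osm repeated this, with 172, 155 and 1088 in R98S and 1470.2, 437 and 1108 in WT clones, and a log2 difference of -1.53 ± 0.66 (SE, limma adjusted p = 0.222). Without R98S clone 35, the highest of the R98S clones, Osm passed the test in mRNA (-1.88, limma adjusted p = 0.0371) and in RPF (-2.44, limma adjusted p = 0.0116). With any other single clone left out Osm did not pass (limma adjusted p = 0.253 to 0.782 in mRNA and 0.142 to 0.588 in RPF). Lif (ENSMUSG00000034394.14; chr11:4257557-4272514, plus strand) had 1149, 1243 and 2272 mRNA counts in R98S and 1539, 1705 and 1562 in WT clones. The WT clones lay close together between the R98S clones, and the log2 difference was -0.11 ± 0.25 (SE, limma adjusted p = 0.866). Lif footprints gave the same picture, with 85.1, 90.5 and 178 in R98S and 118, 119 and 133 in WT clones.

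**Figure D2:**
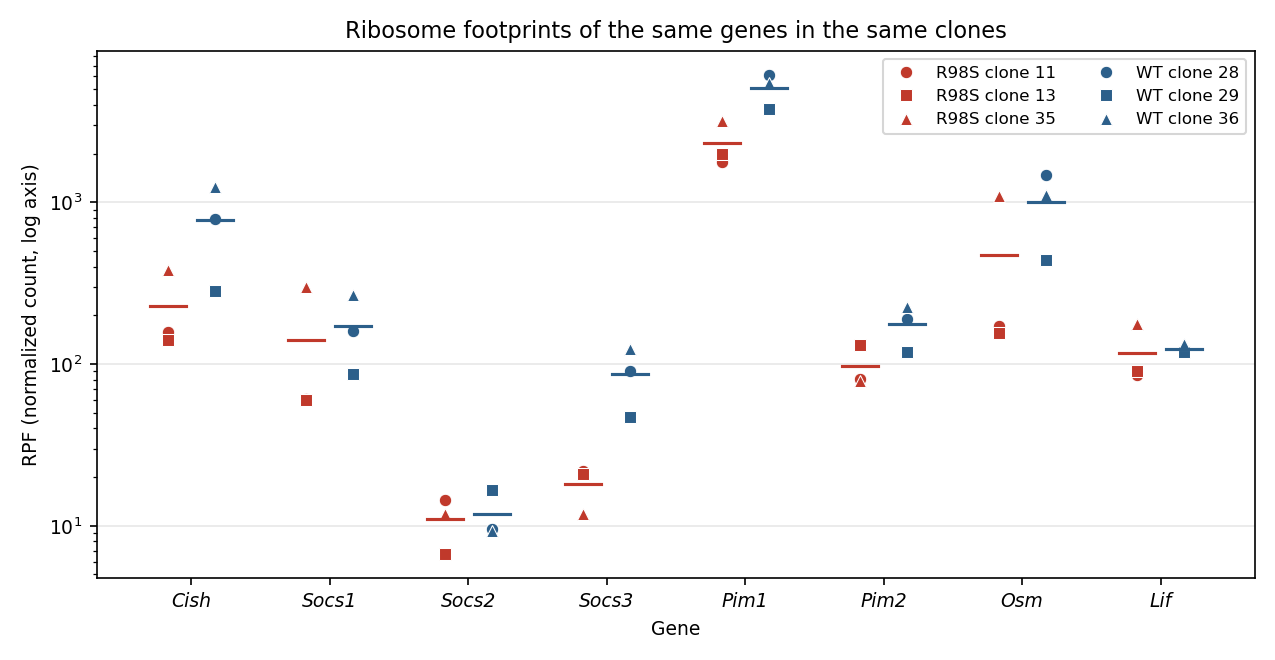
Normalized RPF counts (log axis) of the 8 genes in the footprint table, in each R98S clone (red) and WT clone (blue), with bars at the mean of the 3 clones of a genotype. Socs3 and Pim1 are the genes whose genotypes do not overlap, and Socs2 is the lowest, with 6.70 to 16.7 in the 6 clones.

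In mRNA, the 3 R98S clones lay entirely below the 3 WT clones for 3 of the 9 genes (Socs3, Pim1 and Pim3), against 11.6% of all tested genes. In RPF this held for 2 of 8 genes (Socs3 and Pim1), against 12.8%. Pim3 met the minimum mean for mRNA only through its WT clones. Spread within a genotype was wide for several of the genes. The SD within genotypes on the log2 scale was 1.49 for Pim3 mRNA, larger than in 98.8% of tested genes. It was 1.12 for Cish mRNA and 1.08 for Osm mRNA, larger than in 97.5% and 97.2% of tested genes, whose median was 0.29. In RPF it was 1.29 for Osm, 1.09 for Socs1 and 0.95 for Cish, larger than in 99.4%, 98.9% and 98.2% of genes. Pim1 and Lif varied less, with an SD of 0.43 and 0.38 in mRNA, still larger than in 75.6% and 69.2% of tested genes. Socs2 mRNA had the smallest SD of the 9 genes, 0.31, larger than in 55.7%.

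This spread had a common pattern among the clones, picked from the values of these same genes. The shares of all tested genes beside it are therefore descriptions and no test of the pattern. R98S clone 35 had the highest mRNA level of the R98S clones in 8 of the 9 genes (all but Pim2), as it had in 37.5% of all tested genes. WT clone 29 had the lowest level of the WT clones in 7 of the 9 (all but Socs2 and Lif), as in 31.3% of all tested genes. Cish, Socs1, Socs3, Pim1, Pim3 and Osm showed both, which 12.7% of tested genes did. R98S clones 11 and 13 were the lowest of all 6 clones in 7 of the 9 genes, against 12.5% of tested genes. This count partly restates the order above and the difference between genotypes. In RPF, Cish, Socs1, Pim1 and Osm showed both features, 4 of 8 genes against 10.7%. The 2 libraries of a clone were prepared separately, so the order of clones was measured in each assay, although both come from the same clones. In Osm RPF, R98S clone 35 was 6.65 times the mean of R98S clones 11 and 13, and in Cish mRNA the mean of WT clones 28 and 36 was 4.53 times WT clone 29. The same ratios in Pim3 mRNA were 12.8 and 4.93, on few reads.

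**Figure D3:**
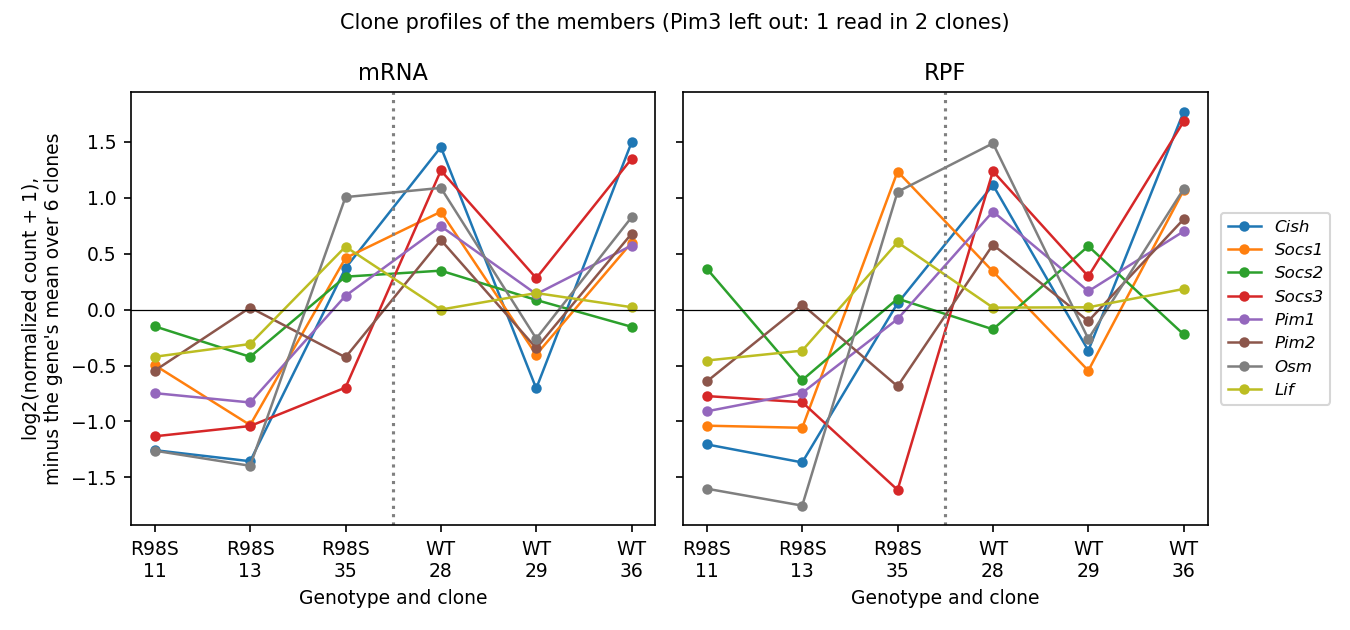
Log2(normalized count + 1) of each gene minus its mean over the 6 clones, for mRNA (left) and RPF (right), with Pim3 left out. R98S clones stand left and WT clones right of the dotted line. Lines join values of 1 gene and imply no order. R98S clone 35 rises above R98S clones 11 and 13 and WT clone 29 dips below WT clones 28 and 36 for Cish, Socs1, Pim1 and Osm, while Lif stays near 0 in WT clones.

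Levels of different genes were compared per kilobase, with the reference transcript length for mRNA and the counted coding length for RPF. In WT clones Pim1 had the highest mRNA level, 5862 ± 1209 (SD, n = 3) normalized counts per kilobase, above 98.2% of genes. By its mean Cish followed with 1325 ± 806, but its clones ranged from 395 to 1817 and overlapped those of Osm, Socs2, Pim2 and Lif. Osm, at 1125 ± 475, lay above the last 3 in every WT clone. These were Socs2 with 419 ± 73.0, Pim2 with 408 ± 141 and Lif with 398 ± 22.4. With the reference transcript length these 3 could not be ordered beyond their spread. Socs1, at 232 ± 94.0, lay below Lif in every WT clone and overlapped Socs3, at 167 ± 59.2, while Pim3, at 27.1 ± 26.8, lay below all others. With all annotated exons as the length Cish stood at 588 ± 358, below Osm in the means, and Socs2 at 97.8 ± 17.03, below Socs1 and Socs3. By that length Pim2 lay below Lif in every WT clone, and its mean was below that of Socs1. In R98S clones the means began with Pim1 at 3091 ± 1216, then Osm at 666 ± 662 and Cish at 451 ± 331, which overlapped, and ended with Socs3 at 42.2 ± 7.01 and Pim3 at 1.64 ± 2.26. Socs3 thus stood above 40.8% of genes in WT and above 16.3% in R98S clones.

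Translation efficiency (TE), the ratio of RPF to mRNA in each clone, did not pass the test for any of the 7 genes that had at least 10 normalized counts in all 12 libraries. Of 9043 genes tested, 0.0221% were called, 2 genes, both lower in R98S. At an unadjusted p-value under 0.05 limma listed 710 of the 9043 genes and none of the 7, and no member was called in any of the 17 settings, edgeR and DESeq2 included. Osm came closest: its ratio was 0.255, 0.252 and 0.335 in R98S clones 11, 13 and 35 and 0.427, 0.323 and 0.386 in WT clones 28, 29 and 36. R98S clone 35 lay above WT clone 29, and the log2 difference was -0.43 ± 0.20 (SE, unadjusted p = 0.0592, limma adjusted p = 0.635). Pim1, the most deeply counted of the genes, had ratios of 0.269, 0.320 and 0.261 in R98S and 0.330, 0.307 and 0.329 in WT clones, with a log2 difference of -0.19 ± 0.18 (SE). The TE differences of Cish, Socs3, Pim2 and Lif were -0.18 ± 0.24, -0.23 ± 0.32, -0.22 ± 0.18 and -0.04 ± 0.22 (SE, log2), and that of Socs1 was 0.14 ± 0.35. For Pim1, Cish and Socs3 these are smaller than the log2 differences in mRNA and in RPF.

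**Figure D4:**
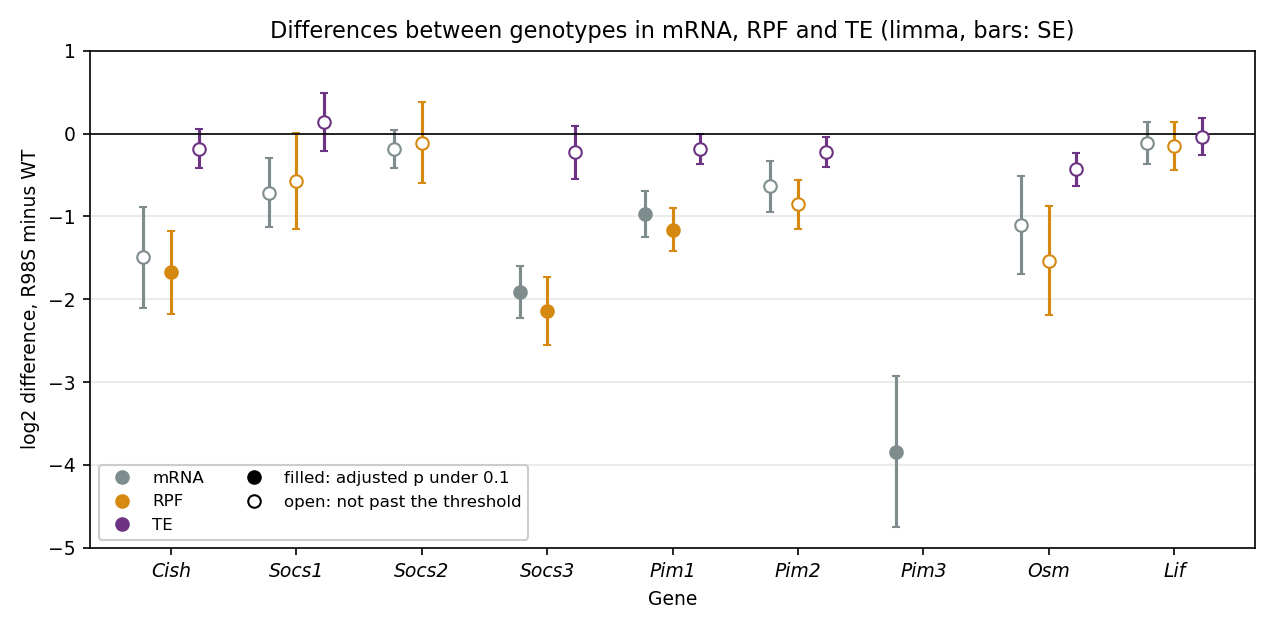
Log2 difference between R98S and WT clones for mRNA, RPF and TE of each gene, with bars of 1 SE from limma; filled points have an adjusted p under 0.1. Points of mRNA and RPF lie side by side below 0 for Socs3, Pim1, Cish and Osm, and the TE points lie between -0.43 and 0.14.

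Socs2 departed from the other genes in its ratio. It had 410 to 1234 mRNA reads a library but only 7 to 27 footprint reads, and its ratio of RPF to mRNA was 0.00868 to 0.0184 over the 6 clones. The ratio in the other 7 genes with footprints was 0.0696 to 0.440. Per length, the ratio of Socs2 in WT clones had a mean of 0.0537 and a range of 0.0361 to 0.0755 (n = 3). Socs2 itself was not tested for TE, because the minimum of 10 in all 12 libraries removed it, and that minimum also removes other genes with few footprints. Its place was therefore taken in a wider set, chosen after the data were seen, as was the length over all exons. This set held the 9539 genes with an annotated length that were tested for mRNA and are in the RPF table. No further minimum for footprints was set. The ratio of Socs2 lay above 0.314% of these genes, and the median was 0.689. All annotated exons come to 9531 bases, in place of the 2222 of the reference transcript. With these as the mRNA length, Socs2 lay above 3.32% of the same genes. The RPF table leaves out some mRNA-tested genes, so both places hold only among genes with an entry in it. Exon reads for mRNA were counted over every annotated exon of a gene, and which transcripts of Socs2 these clones make was not measured. Next lowest per length were Pim2 at 0.422 ± 0.0412 and Lif at 0.567 ± 0.0572. Cish, Socs3, Pim1, Osm and Socs1 lay between 0.832 and 1.29, that is, above 60.3% to 81.6% of the same genes. These places depend on the annotated length. With all exons Pim2 moved from above 25.9% to above 50.7% of genes and Cish from 63.3% to 80.3%. Socs1 moved down from 81.6% to 61.1%, Osm from 78.2% to 56.7%, Pim1 from 69.9% to 58.9%, Socs3 from 60.3% to 44.7% and Lif from 39.6% to 25.02%.

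**Figure D5:**
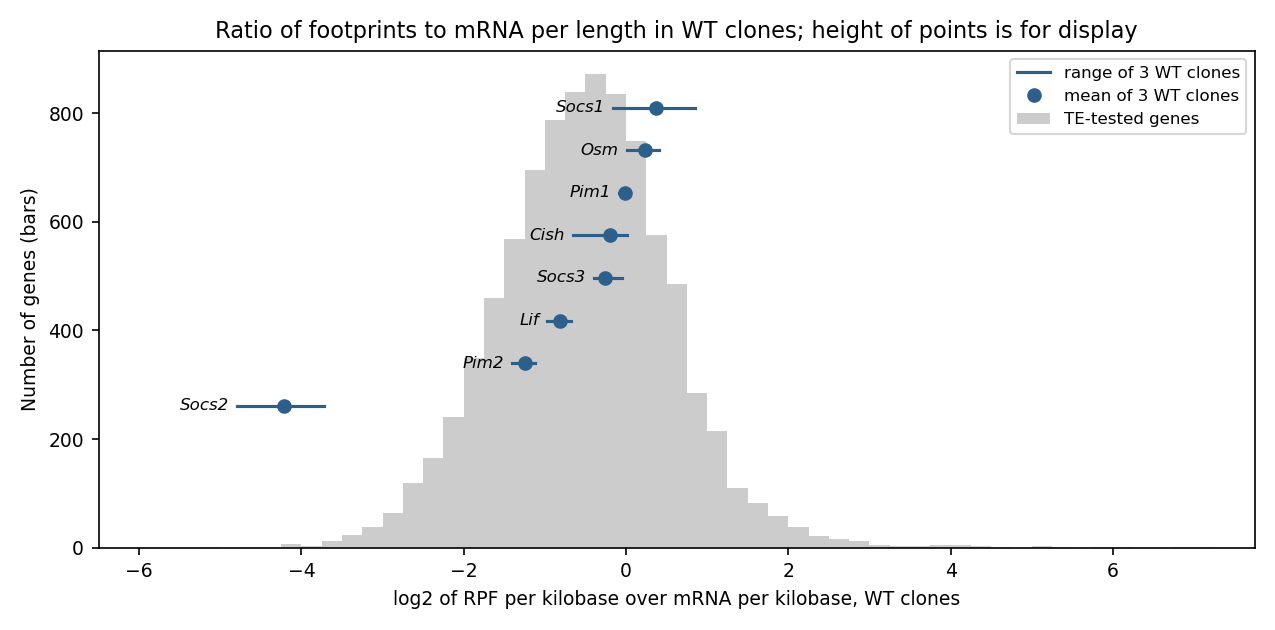
Distribution of the ratio of RPF per kilobase to mRNA per kilobase (log2) over TE-tested genes in WT clones (bars), with the mean (points) and range (lines) of the 3 WT clones for 8 genes; the height of the points only separates them. Socs2, which is not among the TE-tested genes of the bars, lies at the far left end, and the other 7 genes lie within its main body.

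Of the other SOCS family genes, Socs4, Socs5, Socs6 and Socs7, 1 was called: Socs5, as lower in mRNA (-0.88 ± 0.22 SE, limma adjusted p = 0.0677) and not in RPF (-0.75, limma adjusted p = 0.226), against 3.91% of all genes called lower in mRNA and 4.62% in RPF. Socs4 and Socs6, the most abundant of them, had log2 mRNA differences of 0.26 and -0.32. Of 12 other inhibitors of the pathway, 1 was called in mRNA and 2 in RPF, where 6.94% and 7.76% of all genes were called in either direction. Cblb, a ubiquitin ligase that limits receptor signalling, rose in mRNA (1.85 ± 0.19 SE, limma adjusted p = 0.000701) and RPF (2.03 ± 0.21 SE, limma adjusted p = 0.000656). Ptprc, which encodes the phosphatase CD45, fell in RPF (-1.19 ± 0.22 SE, limma adjusted p = 0.0157). The phosphatase genes Ptpn11 and Ptpn6 had log2 mRNA differences of 0.01 and -0.07.

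Upstream of the 9 genes stand the IL-3 receptor, JAK and STAT genes, a list of 14. Of 13 tested in each assay, 1 was higher in mRNA, and 2 were higher and 1 lower in RPF. Over all tested genes, 3.03% were called higher for mRNA, while 3.13% were called higher and 4.62% lower for RPF. The median log2 difference of the list was 0.16 for mRNA and 0.19 for RPF. Csf2rb2, the beta chain specific to IL-3 in the mouse, rose by 0.95 ± 0.22 (SE, limma adjusted p = 0.0424) in mRNA and 1.08 ± 0.17 (SE, limma adjusted p = 0.00886) in RPF. The beta chain Csf2rb rose by 1.02 ± 0.23 (SE, limma adjusted p = 0.0392) in RPF. Its mRNA difference of 0.93 did not pass the test (limma adjusted p = 0.121). These chains are near-identical copies, so reads may be split between them. Il3ra, the alpha chain gene, did not pass the test in mRNA (-0.22, limma adjusted p = 0.691) or RPF (0.29, limma adjusted p = 0.377). Stat2 was lower in RPF (-1.09 ± 0.21 SE, limma adjusted p = 0.0210). Stat5a mRNA was 798, 1030.3 and 858 in R98S and 795, 749 and 791 in WT clones, Stat5b mRNA 1004, 1347 and 1061 in R98S and 939.9, 1431 and 1199.8 in WT clones, and neither passed the test. The mRNA differences of Jak1 and Jak2 were 0.42 and -0.17 on the log2 scale and did not pass it.

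A further list held 20 other genes linked to STAT5 or IL-3 signalling. Like the other lists, it was drawn up with earlier results of these data known. Its shares beside those of all genes are therefore descriptions. In mRNA, 8 of 19 tested fell and none rose, against 3.91% of all genes called lower, with a median log2 difference of -0.87. In RPF, 10 of 16 fell and none rose, against 4.62%, with a median of -0.66. Largest was Id1, an inhibitor of differentiation factors, at -3.48 ± 0.54 (SE, limma adjusted p = 0.00736) in mRNA and -3.50 ± 0.54 (SE, limma adjusted p = 0.00883) in RPF. Dusp6, a phosphatase that limits ERK signalling, fell in mRNA (-1.85, limma adjusted p = 0.00400) and in RPF (-2.20, limma adjusted p = 0.00323). Junb, an AP-1 factor, fell in mRNA (-1.98, limma adjusted p = 0.0202) and in RPF (-2.18, limma adjusted p = 0.0257). Fos fell in RPF (-1.96, limma adjusted p = 0.0735), with overlapping genotypes. Myc was lower in mRNA (-1.18, limma adjusted p = 0.0691) and RPF (-1.54, limma adjusted p = 0.0381), and Mcl1 was lower in RPF (-0.67, limma adjusted p = 0.0980), while its mRNA difference of -0.73 had a limma adjusted p of 0.102. No gene of the list passed the test for TE.

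The receptors for Osm and Lif were almost without reads. Il6st, which encodes gp130, Lifr and Osmr had at most 1.72 normalized mRNA counts in any clone, and Il6ra at most 1.57. Of the other cytokines of the family, Il6 and Ctf1 were measured, with log2 mRNA differences of 0.55 and 0.25 that did not pass the test, while Il11 and Clcf1 were too low to be tested.

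The genes with the most similar profiles over the libraries were sought for each of the 4 called members, by the root mean square (RMS) difference of log2 values centred within each assay. For Cish, whose own profile had an RMS of 1.16, the closest of 9500 genes were Dusp2 (RMS difference 0.27), Fosl1 (0.31) and Csrnp1 (0.32). Among the members Osm was closest to Cish, in place 15, followed by Socs1 in place 27, Pim1 in place 30 and Socs3 in place 60, with Lif in place 1027 and Socs2 in place 3700. For Socs3 the closest were Flywch2 (0.34), Dusp5 (0.39) and Kcnn4 (0.40). Of the members Pim1 was in place 98, Pim2 in 132 and Cish in 157, while Osm was in 2295 and Socs1 in 2306. For Pim1, whose own profile had an RMS of 0.63, the closest genes were Slc35e4 (0.14), Trim16 (0.15) and Acat2 (0.16). The closest member was Pim2 in place 507, with Cish (RMS difference 0.62) in place 2854. For Pim3, with 6 mRNA libraries only, the closest genes were Apol8 (0.58), Id1 (0.67) and Klhl6 (0.74). Cish was the closest member to Pim3, in place 64 of 11343 genes. These distances depend on the size of a gene's changes as well as on the order of clones. They describe the 6 clones, in which genotype and clone both contribute.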

How the data were processed

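For each of 6 Ba/F3 clones, 1 ribosome footprint library and 1 matching mRNA library were analysed. The authors deposited 1 table of signal values per assay, that is, gene counts divided by DESeq2 size factors. The authors removed rRNA and tRNA reads from footprints with Bowtie2, aligned reads to mm10 with TopHat 2.0.11, kept a mapping quality of at least 10, counted exon reads for mRNA and coding reads without the first 15 and last 5 codons for RPF, and merged 3 technical replicates of each RPF library. The strand setting of the counting is not given in the sources used here. Each deposited value above 0 was a whole multiple of 1 read (100% of them, within 0.001).

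Genotypes were compared with limma 3.58.1 (R 4.3.3, trend) on log2(value + 1) for genes with a mean of at least 10. TE was the log2 ratio of RPF to mRNA in each clone, for genes with at least 10 in all 12 libraries; libraries were paired by the clone number in the labels, and their deviations from genotype means correlated at 0.218 to 0.681 across genes. P-values were adjusted over all genes by the Benjamini-Hochberg method, with a threshold of 0.1 from the study. Single genes also had an exact two-sided permutation test. edgeR 4.0.16 and DESeq2 1.42.0 on the recovered reads, other pseudocounts, filters, scalings and weights, and leaving out each clone were alternatives. The fits were tested on simulated data. Genes were placed with GENCODE M21 (the same build). The named genes were the 9 members, Rpl10, up to 4 genes past the threshold and at most 2 further abundant genes of each list, and the 3 closest profiles of each called member. Gene symbols outside this rule (receptor, Stat5a and Stat5b, further cytokine and marker genes) were picked with their values known. The members and lists were chosen with earlier results of these data known.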

Additional observations from a re-analysis of the deposited data

How the results depend on the processing

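Socs3 was lower in R98S clones and past the threshold for mRNA and RPF in all alternatives, and Pim1, Pim2, Pim3, Cish, Osm and Socs1 kept their direction in each assay that measured their mRNA or RPF. Of 350 values of single members under an alternative, 304 kept both direction and side of the threshold, 19 lost the call, 14 gained it and 13 changed sign, in each case without a call. Leaving out 1 clone gave 1 to 5 members called for mRNA and for RPF, 0 for TE, and 315 to 1113 genes for mRNA, 229 to 1148 for RPF and 0 to 3 for TE. Library weights called 7 members and 2959 genes for mRNA, 6 members and 1799 genes for RPF and 796 genes for TE. DESeq2 called 1283 genes for mRNA and 46 for TE, and no filter gave 4 for TE, against 787 and 2. Sign changed in some values that never passed the threshold. With 1 clone left out, Lif ranged from -0.4209 to 0.07086 in mRNA (positive without clone 11 or 13), from -0.485 to 0.04304 in RPF (clone 11) and from -0.1082 to 0.03696 in TE (clone 36). Likewise Socs2 RPF ranged from -0.3225 to 0.1751 (positive without clone 13 or 29), Socs1 TE from -0.213 to 0.4436 (negative without clone 35 or 28) and Socs3 TE from -0.4647 to 0.172 (positive without clone 35). Library weights gave 0.02458 for Socs2 RPF, -0.06379 for Socs1 TE and 0.03134 for Lif TE, and a pseudocount of 8 gave 0.05161 for Socs3 TE. The cause was not tested. For TE, the fit with no replicate block, without pairing by clone, called 3 genes and 0 members, and the pairing changed no call of a member. Pim3 rested on 1 to 52 reads a library and Socs2 footprints on 7 to 27, which limits both.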
